A study of Mus musculus with 8 samples.

Results

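The genes described here are 41 mouse genes of DNA replication and of the step from G1 to S phase, chosen by name for their known roles: activating and atypical E2F factors, E-type cyclins, origin licensing factors, the MCM2-7 helicase, polymerases, the sliding clamp and its loader, Okazaki fragment enzymes, deoxynucleotide supply, and chromatin assembly. All 41 were found among the 55487 genes of each deposited table. Regulatory T cells (Tregs), CD4 T cells that hold back immune responses and are defined by the transcription factor Foxp3, were taken from the spleens of C57BL/6 mice and sorted on GFP. The 8 libraries form 4 groups of 2: SRC-3KO and control from tumor-bearing mice, and SRC-3KO and control from mice without a tumor. The gene Ncoa3 encodes SRC-3, a coactivator of nuclear receptors and other transcription factors. Both tumor controls and no-tumor control replicate 2 are named after Foxp3-Cre, a recombinase driven by the Treg gene Foxp3, whereas no-tumor control replicate 1 is named WT and its source label carries no GFP. Both SRC-3KO libraries without a tumor have Tam1 in their names, a term that no source used here explains and that cannot be told apart from genotype there. The sources used here do not give the deleted allele, the cells that lack it or the tumor model. Separate animals are not stated for the replicates, so p-values measure only the spread between libraries, which may be technical.

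Cells commit to replication when cyclin E and its kinase relieve the E2F factors of their retinoblastoma-family inhibitors. E2F factors then drive the genes that load the MCM helicase on origins, make deoxynucleotides and copy DNA, while the atypical factors E2f7 and E2f8 shut the same genes off later in S phase. Part of the splenic Treg pool is known to be in cycle.

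E2F factors recognise short letters close to the start of many of these genes. RefSeq promoter windows of GRCm38.p6 (the patched form of mm10), 250 bases before to 50 after each start, were at hand for 34 of the 41 genes. The E2F letters searched on both strands were TTTCCCGC, TTTGGCGC, TTTCGCGC and TTTGCCGC, which can overlap one another when they lie on opposite strands. They occurred in windows of 14 of the 34 genes (41.2%), against 704 of 27025 genes in the whole table (2.61%). Windows of 4 helicase and licensing genes that carry these letters are shown with them in capitals, read 5′ to 3′ on the strand of the gene. Mcm3 lies on the minus strand (chr1:20820263-20820562) and has 2 matches, and Mcm6 on the minus strand (chr1:128359656-128359955) has 3, of which 2 overlap. Orc1 (chr4:108579204-108579503) and Cdc6 (chr11:98907901-98908200) lie on the plus strand and have 1 match each, which reads as the reverse complement of the letters searched.
Mcm3: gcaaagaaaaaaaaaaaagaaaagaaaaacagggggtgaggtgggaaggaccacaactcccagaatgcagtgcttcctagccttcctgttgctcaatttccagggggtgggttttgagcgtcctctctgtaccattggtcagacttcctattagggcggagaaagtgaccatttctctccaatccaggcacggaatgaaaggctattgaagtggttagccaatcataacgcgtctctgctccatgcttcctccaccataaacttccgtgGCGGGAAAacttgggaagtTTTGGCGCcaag
Mcm6: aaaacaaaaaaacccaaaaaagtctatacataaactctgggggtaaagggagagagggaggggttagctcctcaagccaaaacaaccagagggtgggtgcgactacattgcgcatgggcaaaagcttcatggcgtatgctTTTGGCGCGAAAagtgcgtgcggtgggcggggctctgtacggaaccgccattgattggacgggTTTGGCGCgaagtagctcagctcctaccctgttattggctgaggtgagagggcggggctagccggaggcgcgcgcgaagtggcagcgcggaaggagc
Orc1: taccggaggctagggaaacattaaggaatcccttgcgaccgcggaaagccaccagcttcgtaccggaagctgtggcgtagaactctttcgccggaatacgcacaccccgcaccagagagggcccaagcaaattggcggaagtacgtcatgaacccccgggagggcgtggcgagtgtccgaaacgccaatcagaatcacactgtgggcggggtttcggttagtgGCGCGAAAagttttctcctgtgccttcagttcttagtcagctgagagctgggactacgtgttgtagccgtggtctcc
Cdc6: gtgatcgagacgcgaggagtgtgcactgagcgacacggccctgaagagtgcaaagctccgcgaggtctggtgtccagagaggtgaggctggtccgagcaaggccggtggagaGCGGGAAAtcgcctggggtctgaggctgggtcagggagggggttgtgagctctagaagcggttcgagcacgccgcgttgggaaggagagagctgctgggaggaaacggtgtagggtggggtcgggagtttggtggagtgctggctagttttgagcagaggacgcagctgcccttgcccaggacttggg

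The window of Rrm2 (chr12:24708004-24708303, plus strand) is shown because Rrm2 had the smallest p with a tumor. It holds none of the E2F letters, and its capitals mark the CCAAT box, CCAAT or ATTGG, which NF-Y binds.
Rrm2: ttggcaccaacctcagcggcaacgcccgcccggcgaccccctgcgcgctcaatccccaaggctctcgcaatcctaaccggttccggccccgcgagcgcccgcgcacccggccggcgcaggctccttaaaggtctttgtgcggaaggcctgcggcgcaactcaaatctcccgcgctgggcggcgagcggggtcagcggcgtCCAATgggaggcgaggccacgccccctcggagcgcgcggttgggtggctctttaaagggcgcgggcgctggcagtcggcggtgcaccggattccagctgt
CCAAT on either strand occurred in windows of 20 of the 34 genes (58.8%), against 41.1% of all genes. The CHR letters TTTGAA or TTCGAA, found in promoters of many late cell cycle genes, occurred in 7 of the 34 (20.6%), against 21.7% of all genes. A match is only a description of the letters, and a missing match says only that they are not in that window.

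The 4 libraries without a tumor were deposited as counts, with totals of 27452922 and 31075452 in SRC-3KO and 25251597 and 24159217 in control, and are given as CPM (counts scaled to library size). The 4 tumor libraries were deposited as FPKM (fragments scaled to transcript length and library size), and their depth is unknown. Ncoa3 stood at 47.5 and 27.7 FPKM in SRC-3KO against 37.7 and 45.4 FPKM in control with a tumor, and at 39.6 and 26.7 CPM in the SRC-3KO libraries against 131 and 54.1 CPM in the controls without one. With a tumor the groups overlapped, and since the deleted exons are not given this does not test the labels. Foxp3 was detected in all 8 libraries. It stood at 20.1 and 28.8 FPKM in SRC-3KO against 18.4 and 14.7 FPKM in control with a tumor, and without one at 21.1 and 10.2 CPM in the SRC-3KO libraries against 230 and 20.5 CPM in the controls, where control replicate 1 was over 10 times higher than any other library. All 8 Treg markers passed the low-value filter in both tables. Without a tumor Foxp3 was not typical of them: 5 of the 8 had a log2 fold change above 0 and 3 below, with a median of 0.71. None had an unadjusted edgeR p under 0.05. The sum of the 8 was lowest in control replicate 1 (3812 CPM). Control replicate 2 reached 5604 CPM, and the SRC-3KO libraries reached 8138 and 8192 CPM. Control replicate 1 without a tumor stood apart: over all genes tested, its log2 levels correlated at 0.69 to 0.70 with the other 3 libraries, which correlated at 0.93 to 0.97 among themselves. No tumor library stood apart in this way (0.92 to 0.98). No pair of replicates with counts agreed within sampling noise.

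In tumor-bearing mice most replication genes stood at lower levels in SRC-3KO Tregs, by small differences. Both SRC-3KO libraries lay below both controls for 32 of the 41 genes, counting 31 of the 39 that passed the filter, against 24.9% of all genes tested. Both lay above both controls for 2, Pole and Uhrf1, against 27.5% of all genes tested. Summed over the 41 genes, the level was 1156 and 1213 FPKM in the SRC-3KO libraries and 1666 and 1383 FPKM in the controls. The FPKM of all genes also summed to less in SRC-3KO, at 416186 and 408458 against 514349 and 463082 in control. The summed level of the 41 genes therefore holds this difference in totals too. Of the 39 genes tested, 37 had a log2 fold change below 0, with a median of -0.45 against -0.018 over all 12859 genes. No single gene passed limma's test over all genes (0 of 39 at an adjusted p under 0.05, against 0.109% of all genes), and the smallest adjusted p was 0.121, for Rrm2. At an unadjusted p under 0.05, 11 of 39 were lower, against 6.07% of all genes, and 0 were higher, against 10.4%. In bulk RNA, fewer cells in S phase and less RNA of these genes per cell cannot be told apart.

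**Figure D1:**
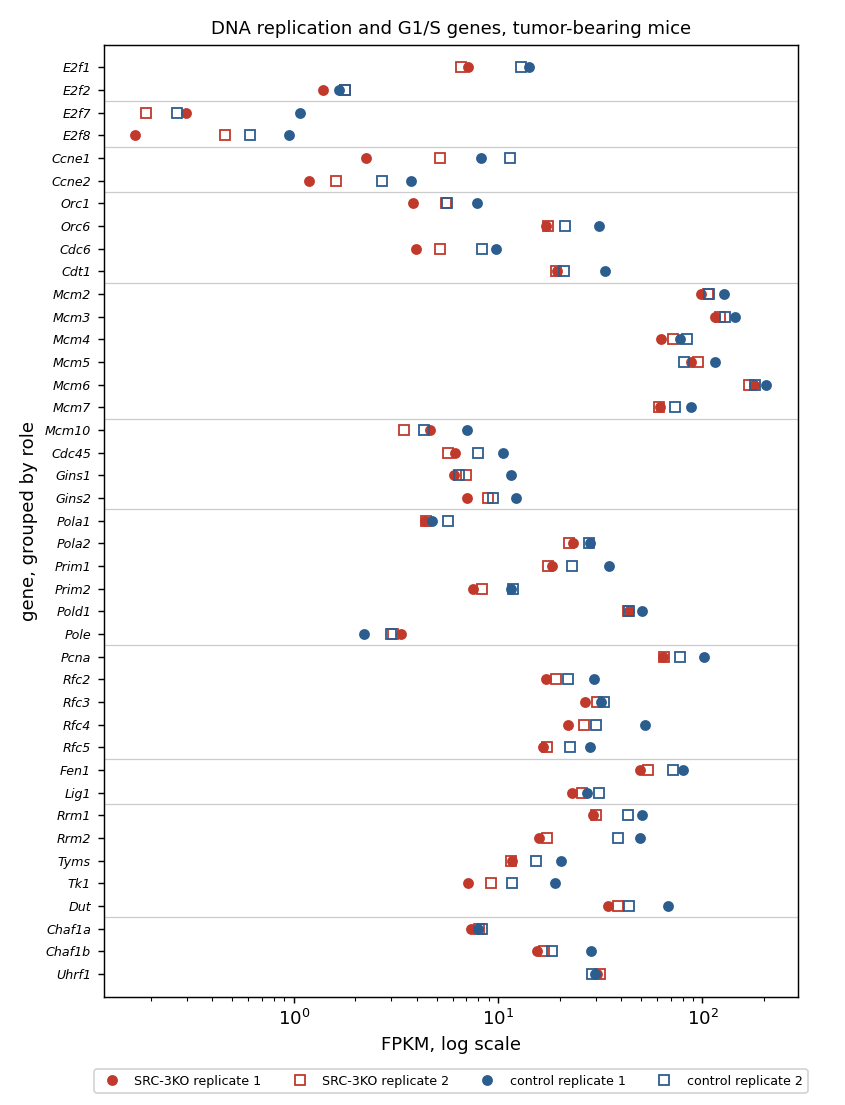
FPKM (log axis) of the 41 genes in the tumor libraries, with SRC-3KO in red and control in blue, replicate 1 as filled circles and replicate 2 as open squares, and lines between functional groups. Red points lie left of both blue points for 32 genes, and the right-most blue point is usually control replicate 1.

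The initiating E2F and cyclin E genes showed some of the widest gaps. E2f1, an activator of G1/S transcription, stood at 7.15 and 6.55 FPKM in SRC-3KO against 14.2 and 12.9 FPKM in control (log2 fold change -0.89, SE 0.20, limma adjusted p = 0.168). Its groups were far apart, whereas those of the related activator E2f2 overlapped, at 1.39 and 1.79 FPKM in SRC-3KO against 1.67 and 1.79 FPKM in control (-0.081, SE 0.24). Cyclin E1 (Ccne1), which with Cdk2 starts S phase, had 2.26 and 5.22 FPKM in SRC-3KO against 8.27 and 11.4 FPKM in control (-1.25, SE 0.38, adjusted p = 0.233). Its paralog Ccne2 had 1.19 and 1.61 FPKM in SRC-3KO against 3.77 and 2.72 FPKM in control (-0.82, SE 0.26, adjusted p = 0.242). Both cyclins were lower in each SRC-3KO library than in each control. The repressors E2f7 (0.297 and 0.190 FPKM in SRC-3KO against 1.07 and 0.270 FPKM in control) and E2f8 (0.168 and 0.458 FPKM in SRC-3KO against 0.950 and 0.613 FPKM in control) were under the filter and were not tested.

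All 4 licensing genes were lower in both SRC-3KO libraries, an order that 24.9% of all genes tested had. Cdc6, which loads the helicase on origins, stood at 3.98 and 5.22 FPKM in SRC-3KO against 9.74 and 8.32 FPKM in control (-0.85, SE 0.24, adjusted p = 0.219). Orc6, a subunit of the origin recognition complex, stood at 17.1 and 17.5 FPKM in SRC-3KO against 31.1 and 21.2 FPKM in control (-0.54, SE 0.24). Cdt1, the partner of Cdc6 in loading, stood at 19.4 and 19.3 FPKM in SRC-3KO against 33.4 and 20.9 FPKM in control (-0.43, SE 0.26). Only control replicate 1 stood well clear of the SRC-3KO libraries for Cdt1. The fourth licensing gene, Orc1, stood at 3.81 and 5.57 FPKM in SRC-3KO against 7.91 and 5.63 FPKM in control (-0.45, SE 0.28). Replicate 2 of SRC-3KO and of control were nearly tied for it.

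The 6 subunits of the MCM2-7 helicase were among the most abundant replication transcripts per length and differed little. Mcm6 was the highest of all 41 in each tumor library, at 179 and 168 FPKM in SRC-3KO against 205 and 181 FPKM in control. The highest subunit exceeded the lowest by 2.74 to 2.90 times in SRC-3KO and by 2.46 to 2.65 times in control, a slightly wider spread in both SRC-3KO libraries. Log2 fold changes of the 6 ran from -0.38 to -0.082, with a median of -0.20. Mcm7 stood at 61.8 and 61.3 FPKM in SRC-3KO against 87.4 and 73.5 FPKM in control (-0.38, SE 0.19, adjusted p = 0.376). Mcm4 stood at 62.7 and 72.0 FPKM in SRC-3KO against 77.5 and 84.4 FPKM in control, and Mcm3 at 115 and 121 FPKM in SRC-3KO against 144 and 130 FPKM in control. None of the 6 had an unadjusted limma p under 0.05, the smallest being 0.0987 for Mcm7, and the groups of Mcm5 overlapped. The factors that switch the helicase on had log2 fold changes of -0.56 to -0.36. Of these, Cdc45, which travels with the helicase, stood at 6.16 and 5.69 FPKM in SRC-3KO against 10.6 and 7.997 FPKM in control. The Gins complex gene Gins2 stood at 7.03 and 8.97 FPKM in SRC-3KO against 12.3 and 9.40 FPKM in control. For Mcm10, which binds the assembled helicase, the groups overlapped, at 4.65 and 3.48 FPKM in SRC-3KO against 7.05 and 4.33 FPKM in control.

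Within the polymerases, the primase genes had larger differences than the catalytic subunits of the polymerases that extend the strands. Prim2, the large primase subunit, stood at 7.56 and 8.30 FPKM in SRC-3KO against 11.6 and 11.8 FPKM in control (-0.51, SE 0.20, adjusted p = 0.299). Prim1, the catalytic primase subunit, stood at 18.3 and 17.6 FPKM in SRC-3KO against 34.7 and 22.9 FPKM in control (-0.62, SE 0.25). Pola2, an accessory subunit of polymerase alpha, stood at 23.3 and 22.2 FPKM in SRC-3KO against 28.1 and 27.7 FPKM in control (-0.28, SE 0.17). In contrast, the groups of Pold1, the catalytic subunit of polymerase delta, overlapped (-0.11, SE 0.18). Pole, the catalytic subunit of polymerase epsilon, stood at 3.36 and 3.07 FPKM in SRC-3KO against 2.20 and 2.99 FPKM in control (0.24, SE 0.25), but had -0.17 with the trend on GC content and transcript length removed. No difference between these subunits was itself tested.

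The sliding clamp Pcna, which tethers polymerases to DNA, stood at 64.1 and 64.9 FPKM in SRC-3KO against 102 and 77.4 FPKM in control (-0.46, SE 0.21, adjusted p = 0.350). Its value is uncertain, because the processed copy Pcna-ps2 was listed at 59.2 and 65.7 FPKM in SRC-3KO against 104 and 67.3 FPKM in control, and reads of near-identical copies can be split between them. All 4 clamp loader genes had values below 0. Rfc5 stood at 16.7 and 17.3 FPKM in SRC-3KO against 28.1 and 22.4 FPKM in control (-0.54, SE 0.20), and Rfc4 at 21.9 and 26.4 FPKM in SRC-3KO against 52.4 and 30.03 FPKM in control (-0.70, SE 0.30). The flap nuclease Fen1, which trims Okazaki fragments, stood at 49.2 and 54.0 FPKM in SRC-3KO against 79.9 and 71.8 FPKM in control (-0.55, SE 0.18, adjusted p = 0.255). Its groups did not overlap, nor did those of the ligase Lig1, at 23.0 and 25.7 FPKM in SRC-3KO against 27.1 and 31.2 FPKM in control (-0.25, SE 0.19).

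Genes that supply deoxynucleotides held the gene with the smallest p, with all 5 lower in both SRC-3KO libraries and 4 of 5 at an unadjusted p under 0.05. Rrm2, the regulatory subunit of ribonucleotide reductase whose level follows S phase, stood at 15.8 and 17.4 FPKM in SRC-3KO against 49.3 and 38.8 FPKM in control (-1.35, SE 0.21, limma adjusted p = 0.121). With any library left out, 1 group is a single library with no spread of its own, so such fits do not test Rrm2 further. The large subunit Rrm1 stood at 29.2 and 30.3 FPKM in SRC-3KO against 50.5 and 43.4 FPKM in control (-0.64, SE 0.18, adjusted p = 0.223). On the FPKM scale the ratio of Rrm2 to Rrm1 was therefore 0.541 and 0.576 in SRC-3KO and 0.976 and 0.893 in control, without overlap. Thymidine kinase Tk1 stood at 7.14 and 9.20 FPKM in SRC-3KO against 18.9 and 11.7 FPKM in control (-0.80, SE 0.29, adjusted p = 0.280). Thymidylate synthase Tyms and the dUTPase Dut had -0.56 (SE 0.22) and -0.57 (SE 0.26).

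Genes that rebuild chromatin behind the fork were mixed. Uhrf1, which brings the maintenance methyltransferase to newly copied DNA, stood at 30.5 and 31.6 FPKM in SRC-3KO against 29.8 and 28.9 FPKM in control (0.081, SE 0.17), though it had -0.11 with the GC and length trend removed. Chaf1b, a subunit of chromatin assembly factor 1, stood at 15.4 and 16.8 FPKM in SRC-3KO against 28.5 and 18.4 FPKM in control (-0.48, SE 0.26). Its partner Chaf1a overlapped between groups, at 7.33 and 8.05 FPKM in SRC-3KO against 7.95 and 8.34 FPKM in control (-0.075, SE 0.21).

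The split by E2F letters went opposite ways in the 2 states. The 13 tested genes with a match had a median log2 fold change of -0.20 with a tumor, and the 19 tested genes with a window but no match had -0.56. Without a tumor the 14 genes with a match had a median of -1.09 and the 20 with no match had -0.56. Of the 11 genes at an unadjusted p under 0.05 with a tumor, 1 (Cdc6) has the letters, 8 have a window without them and 2 have no window in the table. Of the 5 such genes without a tumor, 3 (E2f2, E2f7 and Uhrf1) have the letters and 2 (E2f1 and E2f8) have a window without them. This split was made after the values were known and was not tested.

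The size of the tumor difference depended on the controls and on scaling. Control replicate 1 was the highest library for 31 of the 41 genes, against 39.1% of all genes tested. Without it the median of the 39 genes was -0.26 and limma called 1 of them, Rrm2, where 2.38% of all genes were called lower. Without control replicate 2 the median was -0.66 and 16 were called, where 12.0% of all genes were called lower. With antigen receptor genes left out and the FPKM rescaled to equal sums, the median of all genes moved to 0.18 and 29 of the 39 genes had values below 0, whereas 37 lay below that moved median. Transcripts of other cell types were also at lower levels in the SRC-3KO libraries with a tumor. Summed B cell markers stood at 12.3 and 9.75 FPKM in SRC-3KO against 36.2 and 28.0 FPKM in control, with 4 of 6 passing the filter and Pax5 at no more than 0.0132 FPKM in any library. Summed plasma cell markers stood at 264 and 255 FPKM in SRC-3KO against 1259 and 1957 FPKM in control, with 4 of 6 passing and Tnfrsf17 at 0 throughout. Neutrophil markers summed to 1.29 and 0 FPKM in SRC-3KO against 2.92 and 3432 FPKM in control, with Mpo and Elane at 0, and monocyte markers to 2.30 and 2.36 FPKM in SRC-3KO against 40.5 and 1313 FPKM in control, with Cd14 and Itgam at 0 in control replicate 1. Summed CD8 and NK markers stood at 58.4 and 37.8 FPKM in SRC-3KO against 159 and 111 FPKM in control, with 3 of 6 passing. Of these 3, 2 had a log2 fold change below 0 and 1 went the other way (0.45), with both SRC-3KO libraries above both controls. Treg markers had the opposite sign, with 7 of 8 above 0, a median log2 fold change of 0.47 and 3 higher at an unadjusted p under 0.05 (Il2ra, Ikzf2 and Ctla4; 0 by adjusted p). The part of these transcripts in the result was not tested.

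Without a tumor the same genes gave no uniform picture. Both SRC-3KO libraries lay below both controls for 11 of 41 genes, against 16.8% of all genes tested, and above both for 5, against 23.9%. No gene passed edgeR's quasi-likelihood test (0 of 41, against 0% of 14860 genes), with adjusted p from 0.910 to 0.973. At an unadjusted p under 0.05, 5 genes were lower (E2f1, E2f2, E2f7, E2f8 and Uhrf1), against 2.29% of all genes, and 0 were higher, against 0.882%. DESeq2 called 0 of 41, with 12 lower at an unadjusted p under 0.05, against 7.26% of all genes, and limma-voom called 0, with 0 lower, against 1.47%. The median log2 fold change was -0.48, against -0.019 over all genes, with 27 genes below 0 and 14 above.

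**Figure D2:**
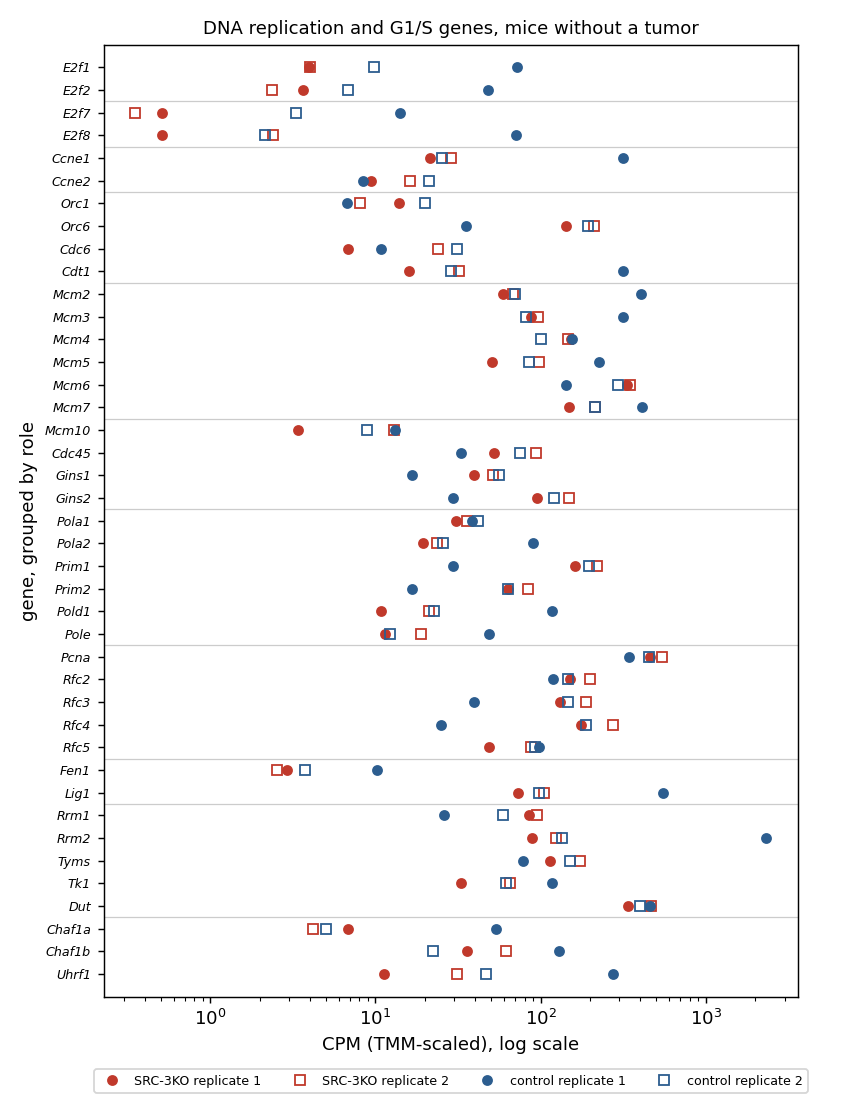
CPM (log axis) of the 41 genes in the libraries without a tumor, with SRC-3KO in red and control in blue, replicate 1 as filled circles and replicate 2 as open squares. The filled blue circle, control replicate 1, is the right-most point for 23 genes and the left-most for 15.

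Control replicate 1 lay at an extreme for most of these genes. It was the highest of the 4 libraries for 23 genes (56.1%, against 42.4% of all genes tested) and the lowest for 15 (36.6%, against 39.3%). The 23 genes where it was highest had a median GC content of 51.9%, and the 15 where it was lowest had 45.4%. Over the 41 genes, its log2 ratio to the mean of the other 3 libraries correlated with GC content at 0.63, a description across genes that share 1 library. GC content is that of the longest transcript, which has only 1 exon for Mcm2, Prim2 and Rrm1 and may differ there from the spliced RNA. The E2F genes, Ccne1, Cdt1 and Rrm2 were among those where it was highest, and Rfc4, Prim1 and Orc6 among those where it was lowest. This library is the one named WT with no GFP in its source label, so genotype and label cannot be told apart in it. Against control replicate 2 alone, both SRC-3KO libraries were lower for 15 genes, higher for 8 and on either side of it for 18. The shares of all genes in these orders were not computed, so the counts only describe the 41. In the fit without control replicate 1 the median log2 fold change of the 41 was -0.25, against 0.078 over all genes.

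**Figure D3:**
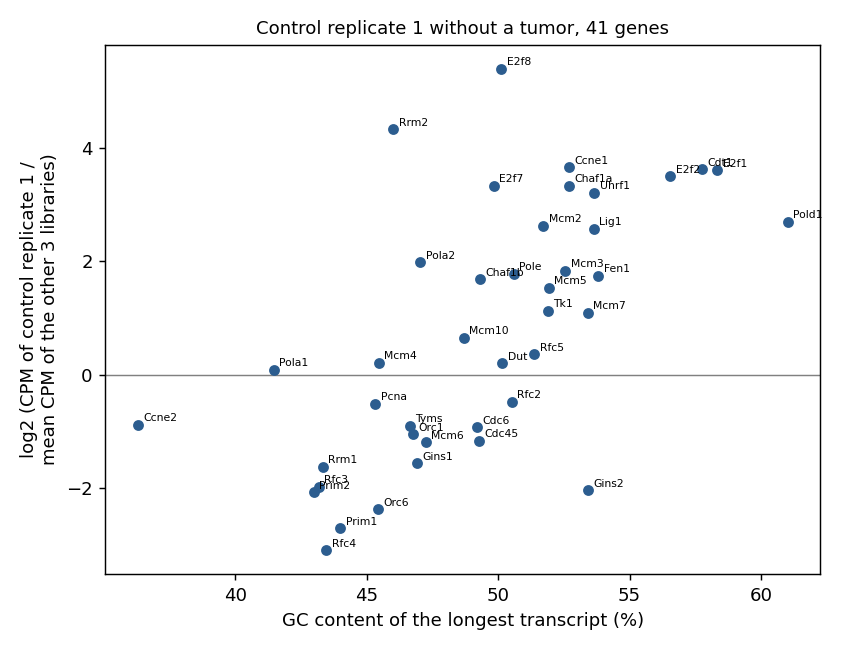
For each of the 41 genes, the log2 ratio of CPM in control replicate 1 without a tumor to the mean of the other 3 libraries, against GC content of the longest transcript in percent. Points run from -3.09 (Rfc4) to 5.39 (E2f8), and genes of low GC content lie mostly below 0.

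All 4 E2F factors differed less between the groups without control replicate 1. E2f1 stood at 3.95 and 4.01 CPM in the SRC-3KO libraries against 72.4 and 9.87 CPM in the controls (log2 fold change -3.37, SE 1.16, and -1.41 without control replicate 1). E2f2 stood at 3.63 and 2.35 CPM in the SRC-3KO libraries against 48.1 and 6.78 CPM in the controls (-3.20, SE 1.19, and -1.28 without that library). E2f7 stood at 0.508 and 0.351 CPM in the SRC-3KO libraries against 14.1 and 3.31 CPM in the controls (-4.33, SE 1.35, and -3.03 without it). In these 3 genes each SRC-3KO library was below each control, at low levels, an order that 16.8% of all genes tested had. E2f8 did not have this order, at 0.508 and 2.39 CPM in the SRC-3KO libraries against 70.5 and 2.13 CPM in the controls (-4.65, SE 1.81, and -0.69 without control replicate 1). Uhrf1 was lower in both SRC-3KO libraries, at 11.2 and 31.1 CPM in the SRC-3KO libraries against 273 and 46.6 CPM in the controls (-2.92, SE 1.17, and -1.26 without it).

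For most other genes the wide differences were those of control replicate 1. Ccne1 stood at 21.5 and 28.5 CPM in the SRC-3KO libraries against 316 and 25.3 CPM in the controls (-2.78, SE 1.28, and -0.13 without control replicate 1). Cdt1 stood at 15.9 and 32.0 CPM in the SRC-3KO libraries against 315 and 28.8 CPM in the controls (-2.85, SE 1.28). Rrm2 stood at 88.9 and 124 CPM in the SRC-3KO libraries against 2327 and 135 CPM in the controls (-3.54, SE 1.49, and -0.46 without it). Control replicate 2 lay near the SRC-3KO libraries in each of these genes. Ccne2 stood at 9.39 and 16.2 CPM in the SRC-3KO libraries against 8.43 and 21.1 CPM in the controls, Cdc6 at 6.85 and 23.8 CPM in the SRC-3KO libraries against 10.8 and 31.01 CPM in the controls, and Orc6 at 142 and 210 CPM in the SRC-3KO libraries against 35.1 and 193 CPM in the controls. The replicates of each group differed as much as the groups did.

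Helicase and fork genes split in the same manner. Mcm2 stood at 59.4 and 67.6 CPM in the SRC-3KO libraries against 406 and 69.8 CPM in the controls (-1.91, SE 1.06), Mcm3 at 88.1 and 96.8 CPM in the SRC-3KO libraries against 316 and 81.5 CPM in the controls (-1.11, SE 0.94), and Mcm5 at 51.1 and 98.0 CPM in the SRC-3KO libraries against 226 and 85.0 CPM in the controls (-1.06, SE 0.89). Mcm6 went the other way, at 332 and 347 CPM in the SRC-3KO libraries against 142 and 295 CPM in the controls (0.63, SE 0.84). The balance among helicase subunits thus differed between libraries: per length, the highest exceeded the lowest by 8.33 and 7.65 times in SRC-3KO and by 3.04 and 6.29 times in control. Of the activation genes, Gins2 stood at 95.7 and 148 CPM in the SRC-3KO libraries against 29.5 and 120 CPM in the controls (0.70, SE 0.94). Cdc45 had 51.9 and 94.1 CPM in the SRC-3KO libraries against 32.8 and 74.7 CPM in the controls (0.44, SE 0.83), and Mcm10 had 3.41 and 12.9 CPM in the SRC-3KO libraries against 13.2 and 8.88 CPM in the controls (-0.44, SE 1.002). All 3 overlapped between groups. Pold1 stood at 10.7 and 21.1 CPM in the SRC-3KO libraries against 117 and 22.6 CPM in the controls (-2.14, SE 1.04), Pola2 at 19.3 and 23.6 CPM in the SRC-3KO libraries against 90.2 and 25.6 CPM in the controls (-1.44, SE 0.89), and Pole at 11.4 and 19.0 CPM in the SRC-3KO libraries against 48.7 and 12.3 CPM in the controls (-1.01, SE 0.94). The clamp loader genes Rfc2, Rfc3 and Rfc4 were lowest in control replicate 1. Rfc4 stood at 176 and 274 CPM in the SRC-3KO libraries against 24.9 and 187 CPM in the controls (1.08, SE 1.12) and Rfc3 at 131 and 189 CPM in the SRC-3KO libraries against 39.7 and 147 CPM in the controls (0.77, SE 0.93). Rfc5 was instead highest in control replicate 1, at 48.7 and 87.7 CPM in the SRC-3KO libraries against 97.6 and 91.9 CPM in the controls (-0.48, SE 0.76), with no overlap.

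Among the remaining genes, Rrm1 was higher in both SRC-3KO libraries, at 84.9 and 95.1 CPM in the SRC-3KO libraries against 25.9 and 59.6 CPM in the controls (1.07, SE 0.80). Scaled per length, Rrm2 exceeded Rrm1 by 4.16 and 5.17 times in SRC-3KO and by 357 and 9.03 times in control, so the ratio was lower in SRC-3KO here as well, with a wide gap between the controls. Tk1 stood at 33.0 and 65.0 CPM in the SRC-3KO libraries against 117 and 62.1 CPM in the controls (-0.87, SE 0.82). Lig1 stood at 73.0 and 105 CPM in the SRC-3KO libraries against 550 and 98.5 CPM in the controls (-1.87, SE 1.07), with overlap. Chaf1a had 6.85 and 4.22 CPM in the SRC-3KO libraries against 54.0 and 5.03 CPM in the controls (-2.42, SE 1.25), and Chaf1b had 35.6 and 61.9 CPM in the SRC-3KO libraries against 129 and 22.4 CPM in the controls (-0.64, SE 1.02). Fen1 was counted at 2.90 and 2.53 CPM in the SRC-3KO libraries against 10.2 and 3.73 CPM in the controls. The antisense gene Gm10143 covers 78.8% of its exon bases, and no source used here states the strand setting, so the values of Fen1 are uncertain in both tables. Of the 41 genes, 16 share exon bases with another gene, and 9 share over 10%, among them Gins2 (67.3%, with Gse1), Chaf1a (52.5%, with Ubxn6) and Ccne2 (17.4%, with Ints8).

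**Figure D4:**
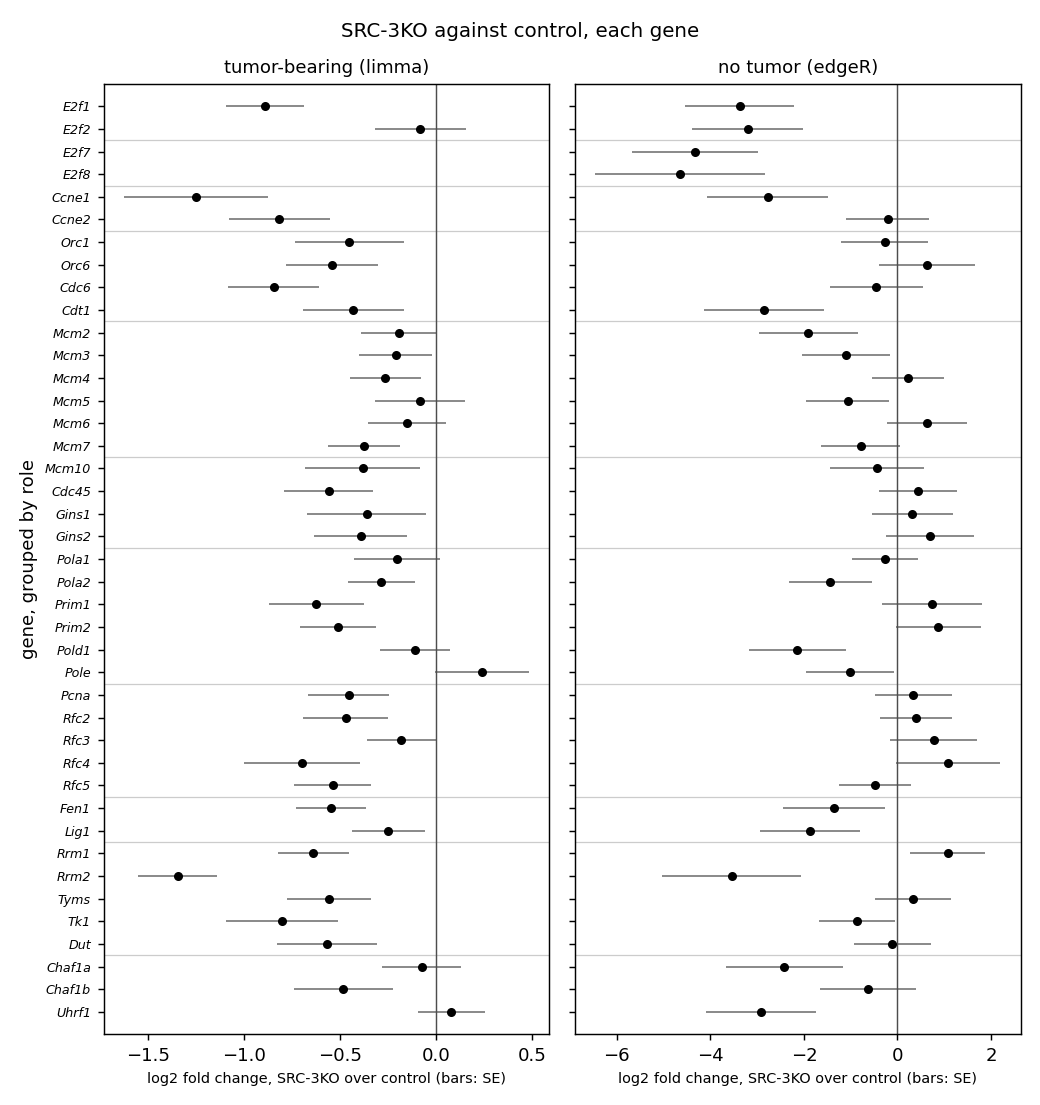
Log2 fold changes of SRC-3KO over control for each of the 41 genes (points) with standard errors (bars), with a tumor (limma, left, 39 genes, since E2f7 and E2f8 were not tested) and without a tumor (edgeR, right), on axes of different range. With a tumor the points lie between -1.35 and 0.24 with short bars, and without a tumor they run from -4.65 to 1.08 with bars that often cross 0.

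The 2 tables share no library. Genes with both SRC-3KO libraries below both controls in each table numbered 7: E2f1, Mcm2, Pola1, Pola2, Rfc5, Fen1 and Rrm2. This is 17.9% of the 39 members tested in both tables, against 2.12% of all 11674 genes tested in both. They make up 7 of the 32 such genes with a tumor and 7 of the 11 without one. Members already exceeded the share of all genes in each table alone, so the joint share does not measure agreement between the tables. Mcm2 was nearly tied: replicate 2 of SRC-3KO and of control stood at 106.9 and 107.5 FPKM with a tumor, and at 67.6 and 69.8 CPM without one. The values of Fen1 are uncertain, as said above. The effect of the tumor itself was not tested, since the states were deposited in different units.

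Other replication genes had a median closer to 0 with a tumor. In a list of 61 further genes of the pathway, 59 were tested with a tumor, 43 had values below 0 and the median was -0.30. None passed limma's adjusted test (0 of 59, against 0.109% of all genes), and at an unadjusted p under 0.05, 9 were lower, against 6.07% of all genes, and 4 higher, against 10.4%. The lower ones include Rnaseh2a, a subunit of the nuclease that removes RNA from DNA, at 16.5 and 17.3 FPKM in SRC-3KO against 31.6 and 25.7 FPKM in control. The histone chaperone Asf1b stood at 13.7 and 15.2 FPKM in SRC-3KO against 32.0 and 22.3 FPKM in control. The higher ones include the maintenance methyltransferase Dnmt1, at 29.9 and 32.0 FPKM in SRC-3KO against 15.5 and 18.2 FPKM in control (0.84, SE 0.19, adjusted p = 0.165). Rbl2, the retinoblastoma-family protein p130 that holds E2F genes silent in resting cells, stood at 13.3 and 14.3 FPKM in SRC-3KO against 7.49 and 7.65 FPKM in control (0.79, SE 0.20, adjusted p = 0.188). Chtf8, part of an alternative clamp loader, stood at 11.5 and 10.6 FPKM in SRC-3KO against 6.16 and 5.05 FPKM in control (0.87, SE 0.22). With the GC and length trend removed, Dnmt1, Rbl2 and Chtf8 had 0.43, 0.60 and 0.75.

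**Figure D5:**
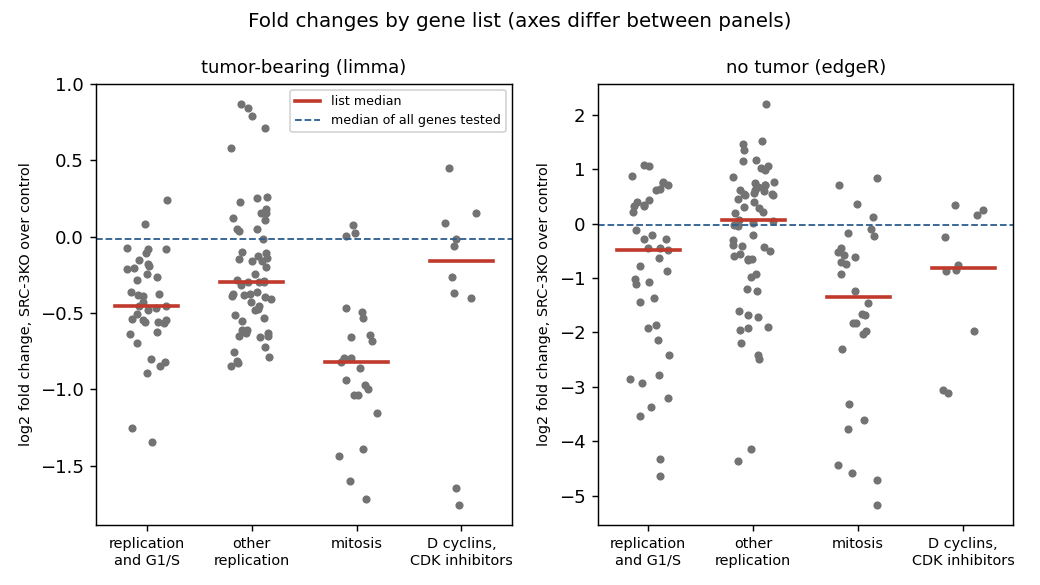
Log2 fold changes of SRC-3KO over control for single genes (points) in 4 lists, with a tumor (left) and without a tumor (right), on axes of different range, with red bars at list medians and a dashed line at the median of all genes tested. With a tumor the medians were -0.45 for the 41 replication and G1/S genes, -0.30 for other replication genes, -0.82 for mitosis and -0.16 for D cyclins and CDK inhibitors.

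Mitotic genes had a median further from 0 with a tumor. Of 30 such genes 23 were tested, with a median of -0.82 and 15 lower at an unadjusted p under 0.05, against 6.07% of all genes (0 by adjusted p, against 0.109%), and the anaphase ligase partner Ube2c stood at 1.66 and 1.61 FPKM in SRC-3KO against 6.74 and 7.24 FPKM in control. The mitotic kinases Aurkb (-1.72, SE 0.24) and Plk1 (-1.39, SE 0.24) had the next smallest p. Of the 23, 20 had values below 0 and 3 above. Mki67, under the filter and not tested, went the other way, at 0.428 and 0.482 FPKM in SRC-3KO against 0.132 and 0.112 FPKM in control. Of the D cyclin and CDK inhibitor list, 10 of 12 were tested, with a median of -0.16 and 2 lower at an unadjusted p under 0.05, against 6.07% of all genes, both named here after their values were seen. These were the G1 kinase Cdk6, at 8.24 and 6.60 FPKM in SRC-3KO against 20.7 and 35.9 FPKM in control, and the CDK inhibitor p21 (Cdkn1a), at 33.4 and 26.3 FPKM in SRC-3KO against 61.4 and 147 FPKM in control. A kinase that promotes entry into S phase and an inhibitor of that step were thus both lower in each SRC-3KO library.

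Without a tumor the other replication list had a median of 0.063 over 60 genes, with 2 lower at an unadjusted p under 0.05 (0 by adjusted p, edgeR), near the 2.29% of all genes. These were Ticrr, which activates origins, at 1.45 and 2.53 CPM in the SRC-3KO libraries against 61.6 and 8.34 CPM in the controls, and E2f3, another activating E2F factor, at 5.66 and 10.8 CPM in the SRC-3KO libraries against 65.6 and 26.8 CPM in the controls. Among genes below both controls, the next by p was the alternative clamp loader gene Chtf18 (-2.41, SE 1.06). Those above both controls with the smallest p were the helicase gene Mcm8 (2.21, SE 0.90), the deoxynucleotide hydrolase Samhd1 (1.52, SE 1.11) and the origin subunit Orc4 (1.46, SE 1.08). The mitotic list had a median of -1.35 over 30 genes, with 5 lower at an unadjusted p under 0.05, against 2.29% of all genes, led by Aurkb (3.23 and 5.52 CPM in the SRC-3KO libraries against 283 and 30.6 CPM in the controls), cyclin A2 (Ccna2, 5.22 and 10.8 CPM in the SRC-3KO libraries against 362 and 23.5 CPM in the controls) and Incenp (7.25 and 7.87 CPM in the SRC-3KO libraries against 169 and 16.0 CPM in the controls). In all 3, control replicate 2 lay above both SRC-3KO libraries but far below control replicate 1. Nusap1 (0.71, SE 0.78) and Ndc80 (0.37, SE 0.72), which act on the spindle, lay above both controls. The D cyclin and CDK inhibitor list had a median of -0.81 over 10 genes, with 2 lower at an unadjusted p under 0.05, against 2.29% of all genes, Ccnd3 and Cdkn2c, also named after their values were seen.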

How the data were processed

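The 41 genes, the other lists and the tests were chosen with earlier results of these data known. Values in every library are given for members with an adjusted p under 0.05 and, per role, for up to 3 members with the smallest unadjusted p, in each comparison. For other replication and for mitosis, up to 3 genes each way with the smallest p and groups that do not overlap are named, and further genes where a sentence calls for them. One gene that this rule names is not reported here.

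The deposited counts per gene of the 4 libraries without a tumor and the FPKM values per gene of the 4 tumor libraries were made by the authors. Per the submitters' processing notes the tools were FastQC, Trim Galore, STAR, featureCounts and edgeR on mm10, and per the file headers FPKM came from StringTie. No source used here states versions, strand setting or annotation release. Libraries were made with the SMART-Seq v4 kit, per the labels.

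Counts were tested with edgeR 4.0.16 in R 4.3.3 (filterByExpr, TMM, quasi-likelihood, common dispersion 0.791). FPKM were tested with limma 3.58.1 with an intensity trend after log2(FPKM + 1), and genes had to reach 1 FPKM in 2 or more libraries. Fold changes of low genes are understated on this scale. p-values were adjusted by Benjamini-Hochberg over all genes tested, with a threshold of 0.05. CPM used TMM library sizes, and per-length values without a tumor are TPM from those counts and GENCODE exon lengths. These lengths join the exons of all transcripts of a gene (11012 bases for Rrm1, 6956 for Mcm2), so ratios between genes depend on the annotation. The longest GENCODE vM21 transcript gave each gene's GC content and length. Both fits were tested on simulated data. Alternatives included limma-voom, DESeq2 1.42.0, other filters, pseudocounts and scalings, a replicate block, removal of the GC and length trend, and leaving out each library. The exact permutation test of 2 against 2 libraries cannot go below p = 0.333 (two-sided).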

Additional observations from a re-analysis of the deposited data

Results flagged for a closer look

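For 6 of the 41 genes both SRC-3KO libraries lay on one side of both controls with a tumor and on the other side without one. This is 15.4% of the 39 members tested in both tables, against 15.7% of all genes tested in both, so the share is near that of all genes. Rrm1 had a log2 fold change of -0.64 with a tumor and 1.07 without one, Prim2 of -0.51 with a tumor and 0.88 without one, and Mcm6 of -0.15 with a tumor and 0.63 without one. Rfc2 had -0.47 with a tumor and 0.40 without one, and Pcna -0.46 with a tumor and 0.34 without one. Uhrf1 went the other way, with 0.081 with a tumor and -2.92 without one. The difference between the states was not tested, because they were deposited in different units, and none of these values passed its own test. In the libraries without a tumor, control replicate 1 was the lowest for Rrm1, Prim2, Mcm6, Rfc2 and Pcna, and the highest for Uhrf1.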

How the results depend on the processing

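With 2 libraries per group, results depended on single libraries. Without a tumor, 0 genes passed edgeR's test. DESeq2 called 87 genes, of the 41 genes 0. With no filter edgeR called 70, of the 41 genes 1 (E2f8, adjusted p = 0.0381), where 0.226% of all genes were called lower. At an unadjusted p under 0.05, 12 of the 41 were lower in DESeq2, against 7.26% of all genes, and 10 with no filter, against 4.06%. The main fit had 5, against 2.29%, limma-voom 0, against 1.47%, and the GC and length trend removed 1, against 1.86%. Leaving out each library gave 0 to 7434 genes, 0 to 28 of the 41 and 0 to 20 lower at an unadjusted p, with the upper ends without control replicate 2. With a tumor, limma called 14 genes, a pseudocount of 0.1 called 7, no filter 1 and median-of-ratios scaling 6. That scaling had 17 of the 39 lower at an unadjusted p, against 7.58% of all genes, where the main fit had 11, against 6.07%. Leaving out antigen receptor genes and rescaling the FPKM to equal sums called 3 (6 of the 39 lower at an unadjusted p, against 2.91% of all genes, median -0.23). The replicate block called 72, and 0 of the 39 were called in any of these. The numbers P1 and P2 did not pair the libraries (correlation of deviations 0.036), and the block is given only here. Leaving out each library gave 31 to 2510 genes, 0 to 16 of the 39, 2 to 25 lower at an unadjusted p and medians of -0.66 to -0.26. With antigen receptor genes left out and the FPKM rescaled to equal sums, signs turned for Chaf1a (0.13), Mcm2 (0.034), Mcm5 (0.14), E2f2 (0.061), Mcm6 (0.076), Rfc3 (0.042), Pold1 (0.12) and Mcm3 (0.017). Antigen receptor genes held 1.17% and 0.978% of the FPKM in SRC-3KO and 2.06% and 1.99% in control. After removal of the GC and length trend, signs turned for Uhrf1 (-0.11) and Pole (-0.17) with a tumor and Pcna (-0.52) and Gins1 (-0.39) without one. Leaving out a library turned the sign, with a tumor, of Mcm5 (-0.33 to 0.16), E2f2 (-0.19 to 0.031) and Gins1 (-0.73 to 0.012). Without a tumor it did so for Mcm3 (-1.80 to 0.075), Mcm10 (-1.67 to 0.29), Dut (-0.34 to 0.17), Gins1 (-0.41 to 1.42), Ccne2 (-0.84 to 0.56), Orc1 (-0.94 to 0.69), Tyms (-0.17 to 0.84), Pole (-1.72 to 0.19), Prim1 (-0.16 to 2.65), Orc6 (-0.24 to 2.29), Gins2 (-0.090 to 2.01), Cdc6 (-1.59 to 0.45), Mcm4 (-0.079 to 0.45), Cdc45 (-0.15 to 1.12), Chaf1b (-1.44 to 1.004) and Chaf1a (-3.30 to 0.042). The cause was not tested, and the lone library of a group is then assumed to vary like the others. Depth is unknown for the tumor libraries, which leaves the precision of their low values unknown.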
